A study of Homo sapiens with 8 samples.

Results

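The genes described here are 8 ligands of the tumour necrosis factor (TNF) superfamily: LTA, LTB, TNF, TNFSF4, TNFSF9, TNFSF10, TNFSF13B and CD70. They were taken by symbol from 23710 gene symbols counted in 8 RNA-sequencing libraries of a human lymphoblastoid cell line, a B cell line made by infection with Epstein-Barr virus. LTA was chosen on its measured counts at 3 and 7 days in these same libraries, and the other 7 ligands were chosen beside it with earlier results of these libraries known. The LTA values are therefore a description and carry no test. All 8 genes passed the filter on low counts, as did 12536 genes in all.

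Cells were grown in RPMI medium and, except for the controls, exposed to 5 µM hexavalent chromium, a DNA-damaging form of the metal, for 24 h. The 4 groups were control cells, cells at 24 h of exposure, and cells labelled 3 days and 7 days post treatment, with 2 libraries each that the labels call biological replicates. The sample labels count these days from treatment, whereas the series text counts time from the onset of exposure, so the start of the day count is not settled. No unexposed cells were sampled at the later times, and exposure and time in culture cannot be told apart there. All libraries came from a single cell line grown without other cell types.

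TNF superfamily ligands are mostly membrane proteins that act as trimers on receptors of the TNF receptor superfamily. Lymphotoxin alpha (LTA) is secreted as a homotrimer that binds the TNF receptors, or held at the cell surface in a complex with lymphotoxin beta (LTB) that binds the lymphotoxin beta receptor. In B cells the receptors of this family recruit TRAF adaptors and turn on the canonical and alternative NF-kB pathways, and LTA, LTB and TNF are themselves known NF-kB target genes. In B cells carrying Epstein-Barr virus, a viral membrane protein that mimics an active receptor of this family drives the same pathways.

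LTA, TNF and LTB lie side by side in the major histocompatibility complex on chromosome 6, so the bases before their start sites are shown together, with those of TNFSF4 as a ligand gene elsewhere, on chromosome 1. Each sequence is the 250 bases before a RefSeq start site (GRCh38.p14), 5′ to 3′ on the strand of the gene. Capitals mark matches to the kB motif, the site bound by NF-kB, and to TATAAA, both searched on either strand. The kB motif was taken as GGGRNNYYCC, with R a purine, Y a pyrimidine and N any base. RefSeq lists more than 1 start for LTA and LTB, and the downstream LTA start and the first listed LTB start are shown.
LTA, chr6:31572039-31572288, plus strand: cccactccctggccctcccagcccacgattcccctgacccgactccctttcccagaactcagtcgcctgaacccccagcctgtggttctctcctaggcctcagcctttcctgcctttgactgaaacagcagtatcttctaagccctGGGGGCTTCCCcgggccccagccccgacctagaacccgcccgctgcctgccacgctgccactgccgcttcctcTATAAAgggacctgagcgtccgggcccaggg
LTB, chr6:31582426-31582675, minus strand: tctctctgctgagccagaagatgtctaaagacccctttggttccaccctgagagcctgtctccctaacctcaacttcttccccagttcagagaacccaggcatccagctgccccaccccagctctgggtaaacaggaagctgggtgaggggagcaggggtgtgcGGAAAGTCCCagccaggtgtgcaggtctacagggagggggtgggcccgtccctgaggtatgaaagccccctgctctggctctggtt
TNF, chr6:31575315-31575564, plus strand: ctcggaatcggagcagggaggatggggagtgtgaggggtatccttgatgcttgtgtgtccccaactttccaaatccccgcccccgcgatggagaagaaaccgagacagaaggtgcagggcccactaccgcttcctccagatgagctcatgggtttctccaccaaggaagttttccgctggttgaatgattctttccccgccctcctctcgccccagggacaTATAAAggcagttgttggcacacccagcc
TNFSF4, chr1:173205533-173205782, minus strand: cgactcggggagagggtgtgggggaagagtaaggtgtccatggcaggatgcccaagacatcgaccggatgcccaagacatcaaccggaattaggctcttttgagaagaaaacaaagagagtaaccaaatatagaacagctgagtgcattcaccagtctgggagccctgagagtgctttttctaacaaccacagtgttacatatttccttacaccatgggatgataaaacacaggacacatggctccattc

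The shown LTA window held 2 overlapping kB matches, 104 to 94 bases before the start, and TATAAA at 31 to 26 bases. The window of the upstream LTA start held no match to either motif. The LTB window held a kB match on the opposite strand, 86 to 77 bases before the start, whose letters read GGGACTTTCC on that strand. The TNF window held TATAAA 29 to 24 bases before the start and no kB match, and the TNFSF4 window held neither. Promoter entries matched 7 of the 8 ligand genes, with CD70 the gene without one, and gave 10 windows. Of the windows not shown, those of TNFSF9 and TNFSF10 held TATAAA, the other LTB window the same kB match, and those of TNFSF13B no match. The AP-1 motif TGANTCA was in none of the 10. Of 35116 windows of this length before RefSeq starts, 9.96% held a kB match, 10.7% TATAAA and 6.57% the AP-1 motif. A match describes letters in a window and does not show that a factor binds there. A window without a match can still hold a site whose letters differ from the pattern searched.

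Between 9478459 and 11110830 reads were counted to genes in each library, and levels are given as CPM, the read count relative to the gene counts of the library scaled by edgeR's TMM factor. B cell markers were present as labelled, with 9 of 10 reaching 10 CPM, while of the markers of other cells only ITGAM, 1 of 9 myeloid genes, did (0 of 11 for T and NK cells, 0 of 9 for stromal and epithelial cells). CD3D and CD3G had no read in any library. The summed B cell markers lay at 2202 to 2786 CPM in control cells, 2236 to 2955 at 24 h, 1764 to 1949 at 3 days and 1831 to 1912 at 7 days, and their part in the ligand values was not tested. The summed T and NK cell markers lay at 1.23 to 3.69 CPM in control cells, 1.86 to 3.22 at 24 h, 3.93 to 4.01 at 3 days and 3.22 to 4.09 at 7 days. The summed myeloid markers lay at 8.61 to 14.3, 9.49 to 13.2, 5.18 to 9.87 and 5.43 to 8.50 CPM in these groups, and the stromal and epithelial markers at 7.58 to 14.7, 10.3 to 10.8, 6.06 to 8.48 and 4.75 to 7.24 CPM. Both sums were lower at 7 days than in any early library, at low levels, and their part in the ligand values was not tested. The libraries did not group simply by label. By a chi-square of counts per degree of freedom, replicate 1 at 3 days and replicate 1 at 7 days differed least from each other (4.55), as did the 2 late replicates 2 (5.68), whereas replicates within these groups differed by 94.9 and 78.8. Control replicate 1 was closest to 24 h replicate 2 (6.23), and control replicate 2 to 24 h replicate 1 (6.55). The late replicate 1 libraries also had the fewest reads outside counted features, 39.4% and 36.5% of reads where the other libraries had 44.4% to 51.5%, and the part of this in the ligand values was not tested. Where leaving these libraries out turns the direction of a member against control or moves its value by over 1.5 times, both values are given.

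LTA, LTB, TNF and TNFSF13B were lower in both libraries of each late group than in every control and 24 h library. The share of all tested genes with this order was not counted, here or for other genes described so below. Taking 1 pair of groups at a time, both late libraries lay below both early ones for 17.2% to 19.1% of all tested genes. TNFSF4 and CD70 were higher than in any early library only in replicate 1 of each late group. TNFSF9 and TNFSF10 overlapped between the early and late groups. At 24 h the libraries of 7 members overlapped those of control cells, and those of TNFSF13B were both above control. In bulk RNA, fewer cells with a transcript and less of it per cell cannot be told apart.

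LTA was at 291 and 532 CPM in the control libraries and at 455 and 252 CPM at 24 h. It was at 87.4 and 106 CPM at 3 days and at 97.0 and 145 CPM at 7 days, from 850 to 1445 reads per late library. The 4 late libraries all lay below the 4 early ones, and the lowest early library was 24 h replicate 2. The fitted log2 difference from control was -2.09 ± 0.40 (SE, n = 2 libraries a group) at 3 days, a 4.24-fold lower level. At 7 days it was -1.76 ± 0.40, a 3.39-fold lower level. At 24 h it was -0.22 ± 0.39, and the 2 control libraries themselves differed 1.83-fold. The high and low libraries of the early groups were crossed, with control replicate 2 and 24 h replicate 1 high.

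LTB, the membrane partner of LTA, was counted far less deeply, with 8 to 56 reads a library. It was at 4.74 and 4.81 CPM in control cells, 5.63 and 3.25 CPM at 24 h, 2.88 and 2.23 CPM at 3 days, and 0.884 and 1.81 CPM at 7 days. Every late library was below every early library, and both 7 day libraries were below both 3 day libraries. Against control it differed by -0.90 ± 0.46 (log2) at 3 days (edgeR adjusted p = 0.843) and -1.81 ± 0.49 at 7 days (edgeR adjusted p = 0.851). The difference between 7 and 3 days was -0.91 ± 0.50 (edgeR adjusted p = 1), and none of the 3 passed the test. That last value was -1.51 without 7 day replicate 2, -0.49 without 7 day replicate 1 and -0.31 without both late replicate 1 libraries. Across the settings tried, the 7 day difference of LTB from control ran from -2.40, without 7 day replicate 2, to -1.39.

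TNF, the inflammatory cytokine made by activated lymphocytes and macrophages, was at 38.0 and 50.4 CPM in control cells and at 50.8 and 37.9 CPM at 24 h. It was at 22.7 and 29.5 CPM at 3 days and at 20.7 and 24.8 CPM at 7 days, so the late libraries did not overlap the early ones. The log2 difference from control was -0.76 ± 0.27 at 3 days (edgeR adjusted p = 0.843) and -0.96 ± 0.27 at 7 days (edgeR adjusted p = 0.851), without passing the test. At 24 h it was 0.01 ± 0.27.

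**Figure D1:**
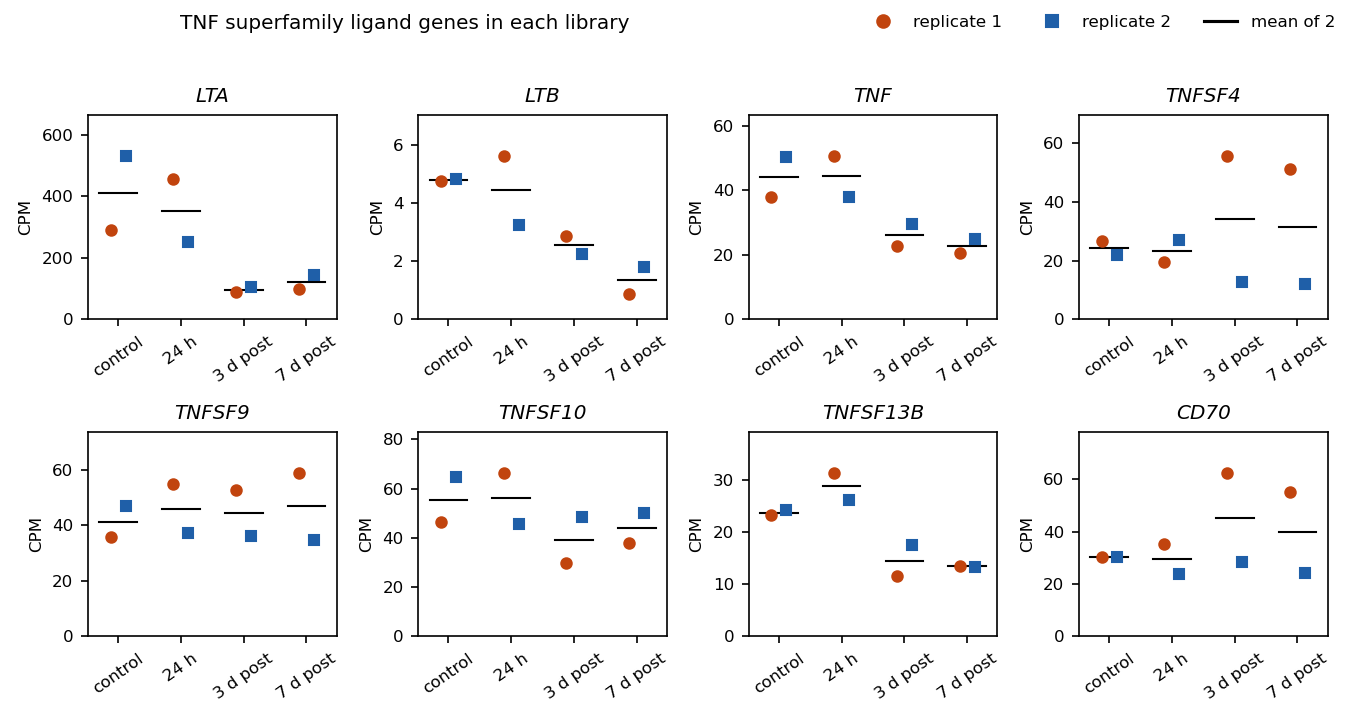
Level of each ligand gene (y axis, CPM, each panel with its own scale from 0) in the 4 groups (x axis). Circles are replicate 1, squares are replicate 2 and bars are the mean of the 2 libraries. LTA, LTB, TNF and TNFSF13B are lower in both libraries at 3 and 7 days, while TNFSF4 and CD70 split into a high replicate 1 and a replicate 2 near or below control.

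TNFSF13B encodes BAFF, a survival factor for B cells. It was at 23.2 and 24.3 CPM in control cells and at 31.4 and 26.1 CPM at 24 h, both above control. It was at 11.5 and 17.5 CPM at 3 days and at 13.6 and 13.3 CPM at 7 days. The 7 day libraries lay within 1.02-fold of each other and well under both controls. The log2 difference from control was 0.28 ± 0.27 at 24 h (edgeR adjusted p = 1), -0.71 ± 0.27 at 3 days (0.843) and -0.82 ± 0.27 at 7 days (0.851). The 3 day value was -0.44 without replicate 1 at 3 days and -0.43 without both late replicate 1 libraries. Against 24 h the log2 difference was -0.98 ± 0.27 at 3 days (edgeR adjusted p = 0.726) and -1.10 ± 0.27 at 7 days (0.735), and no comparison passed the test.

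TNFSF10 encodes TRAIL, which binds the death receptors TNFRSF10A and TNFRSF10B. It was at 46.5 and 64.7 CPM in control cells, 66.4 and 45.8 CPM at 24 h, 29.8 and 48.6 CPM at 3 days, and 37.8 and 50.3 CPM at 7 days. In each late group replicate 1 was below every early library and replicate 2 lay inside the early range. Against control it differed by -0.50 ± 0.33 (log2) at 3 days (edgeR adjusted p = 0.843) and -0.34 ± 0.33 at 7 days (0.864). Leaving out replicate 1 at 3 days moved the former to -0.19, and leaving out control replicate 2 moved the latter to -0.08. Without both late replicate 1 libraries the values were -0.18 and -0.14.

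The other 3 ligands are costimulatory molecules that activated B cells show to T cells. TNFSF4 encodes OX40 ligand and was at 26.7 and 21.8 CPM in control cells and at 19.5 and 27.0 CPM at 24 h. At 3 days it was at 55.8 CPM in replicate 1 and 12.7 CPM in replicate 2, and at 7 days at 51.1 and 11.96 CPM. Replicate 1 was thus above, and replicate 2 below, every early library at both times. The gap between replicates was 4.40-fold at 3 days and 4.28-fold at 7 days, and only 1.9% and 2.46% of the 12536 genes had as large a gap. The log2 difference from control was 0.49 ± 0.75 at 3 days (edgeR adjusted p = 0.892) and 0.38 ± 0.75 at 7 days (0.916). Without the 2 late replicate 1 libraries it was -0.93 and -1.02 (edgeR adjusted p = 0.766 and 0.862), so its direction rests on which library is read.

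CD70, the ligand of CD27, followed the same split at a smaller size. It was at 30.2 and 30.4 CPM in control cells, 35.3 and 23.9 CPM at 24 h, 62.5 and 28.3 CPM at 3 days, and 55.2 and 24.2 CPM at 7 days. Replicate 1 stood 2.21-fold above replicate 2 at 3 days and 2.28-fold at 7 days, against 1.48-fold at 24 h and nearly equal controls. Of all tested genes, 14.2% had as large a gap at 3 days and 12.3% at 7 days, so gaps of this size were not rare. Against control it differed by 0.58 ± 0.47 (log2) at 3 days (edgeR adjusted p = 0.843) and 0.39 ± 0.47 at 7 days (0.872). Without the late replicate 1 libraries it was -0.09 and -0.32.

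TNFSF9 encodes 4-1BB ligand. It was at 35.7 and 46.9 CPM in control cells, 54.8 and 37.2 CPM at 24 h, 52.6 and 36.3 CPM at 3 days, and 59.0 and 34.8 CPM at 7 days. All 4 groups overlapped. The log2 difference from control was 0.16 ± 0.34 at 24 h (edgeR adjusted p = 1), 0.11 ± 0.34 at 3 days (0.951) and 0.18 ± 0.34 at 7 days (0.912). Without the late replicate 1 libraries the 3 and 7 day values were -0.18 and -0.24.

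**Figure D2:**
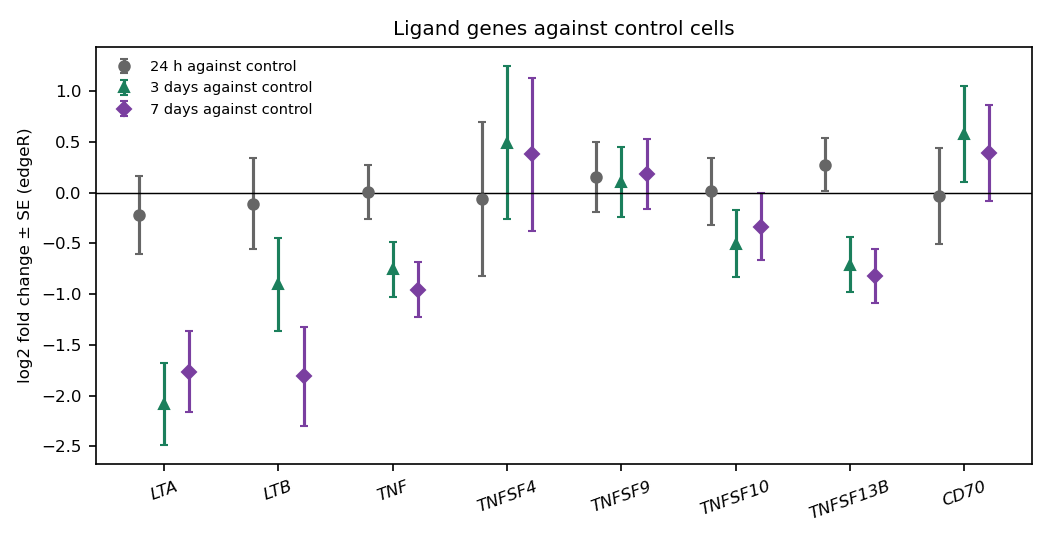
Fitted log2 fold change of each ligand gene against control (y axis) at 24 h, 3 days and 7 days. Bars are 1 standard error, worked back from the fold change and the F statistic of the edgeR fit over all 8 libraries. The 24 h points sit near 0, between -0.22 for LTA and 0.28 for TNFSF13B, and the late points of LTA, LTB, TNF, TNFSF10 and TNFSF13B lie below 0 by more than 1 standard error.

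Read as a set, 4 of the 8 members (LTA, LTB, TNF and TNFSF13B) had both 3 day libraries below both control libraries, where 17.2% of all tested genes did. The same 4 were lower at 7 days than control, with a background of 17.9%, and lower than 24 h at 3 days (17.6%) and at 7 days (19.1%). These comparisons share libraries and do not support each other, and LTA was in the set because of them. The other members were chosen with earlier results of these libraries known. The counts and the medians below include LTA, so they are a description and show no enrichment over the backgrounds. None of the 8 was higher without overlap at 3 or 7 days than in control cells (background 16.7% and 16.6%). At 24 h against control 0 of 8 were lower without overlap (background 12.5%) and only TNFSF13B was higher (11.4%). Between 7 and 3 days only LTB was lower (6.41%). The median log2 difference of the 8 was -0.61 at 3 days and -0.58 at 7 days, beside 0.01 and 0.0016 over all tested genes. Without both late replicate 1 libraries, which leaves a single library in each late group, all 8 were lower than control at both times. The share of all tested genes with a lower estimate in that fit was not counted. Several of the 8 lay close to control at 3 days, with TNFSF9 and TNFSF10 each at -0.18 and CD70 nearer still. The medians were then -0.50 at 3 days and -0.83 at 7 days, beside -0.01 and -0.009 over all tested genes.

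With edgeR's quasi-likelihood test and Benjamini-Hochberg adjustment, 0 genes passed an adjusted p of 0.05 in each of the 6 comparisons (0% of 12536). At an unadjusted p under 0.05 there were 22 genes at 24 h, 663 at 3 days and 619 at 7 days against control. There were 764 at 3 days and 747 at 7 days against 24 h, and 31 between 7 and 3 days. DESeq2 called 0, 9, 15, 19, 21 and 0 genes in these 6 comparisons, and limma-voom called 0 in each. LTA carries no test, and none of the other 7 members was among the genes called. A fit with a replicate block in which the 24 h numbers were crossed was chosen after seeing the data. It called 0, 6, 5, 19, 10 and 0 genes, again with none of those 7 members among them. With 2 libraries a group, an exact permutation test of a single gene could not go below p = 0.333.

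Levels were compared between members per kilobase of merged GENCODE exons. LTA was the highest of the 8 in every library, at 237 ± 98.2 CPM per kilobase (SD, n = 2) in control cells and 55.8 ± 7.73 at 3 days. LTB was the lowest in every library, at 3.11 ± 0.03 in control cells and 0.877 ± 0.43 at 7 days. Between these, TNF (26.3 ± 5.24 CPM per kilobase), TNFSF9 (24.8 ± 4.76) and CD70 (19.8 ± 0.08) were neighbours in control cells, and TNF and TNFSF9 did not differ beyond their spread. TNFSF10 followed at 16 ± 3.71, then TNFSF13B at 7.76 ± 0.25 and TNFSF4 at 6.15 ± 0.88 CPM per kilobase. TNF went from rank 2 or 3 in the early libraries to rank 4 or 5 in the late ones, and CD70 from rank 4 to rank 2 or 3. TNFSF4 stood at rank 4 in the late replicate 1 libraries and at rank 7 in the other 6. With the longest transcript as the length, LTA ranked behind CD70 in replicate 1 at 3 days and first in the other 7 libraries. With that length CD70 was already at rank 2 in all early libraries and at rank 1 or 2 in the late ones, and TNF went from rank 4 or 5 to rank 5 or 6.

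The receptors of these ligands differed from control in both directions. Of 14 receptor genes, 12 passed the count filter, and 0 were called in any comparison. At 3 days 4 were lower and 8 higher than control (median log2 difference 0.18), and at 7 days 3 were lower and 9 higher (0.16). Without both late replicate 1 libraries, which left 11 receptors tested, 6 were lower and 5 higher at 3 days (-0.04) and 5 lower and 6 higher at 7 days (0.04). LTBR, the receptor of the LTA-LTB complex, had at most 9 reads in a library, and TNFRSF4, the receptor of TNFSF4, had 5 reads in all control libraries together and none elsewhere. TNFRSF1B, the TNF receptor of lymphocytes, was present at 47.6 to 72.5 CPM, and TNFRSF1A at 5.45 to 14.1 CPM.

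TNFRSF9, the receptor of TNFSF9, was at 14.9 and 10.03 CPM in control cells, 10.3 and 11.8 CPM at 24 h, 5.14 and 6.51 CPM at 3 days, and 4.75 and 4.52 CPM at 7 days. Its late libraries lay below all early ones, with log2 differences from control of -1.10 ± 0.31 (edgeR adjusted p = 0.843) and -1.43 ± 0.32 (0.851), while its ligand stayed near its control level. TNFRSF14, a receptor that also binds LTA, was at 26.5 and 39.2 CPM in control cells, 22.3 and 24.3 CPM at 3 days, and 17.3 and 18.3 CPM at 7 days. The lower of its 24 h libraries (20.3 CPM) was inside that late range. CD27, the receptor of CD70, stayed between 61.1 and 91.8 CPM in all libraries. The BAFF receptors TNFRSF13B and TNFRSF13C overlapped between groups, at 23.5 to 44.8 and 1.66 to 14.2 CPM.

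The TRAIL receptors split by replicate like TNFSF4 and CD70. TNFRSF10A was at 24.4 and 25.3 CPM in the late replicate 1 libraries and at 3.72 to 5.02 CPM in the other 6. TNFRSF10B was at 472 and 429 CPM in those 2 libraries and at 179 to 243 CPM in the others. The decoy receptor TNFRSF10D, named after its values were seen, had 920 and 761 reads there and 124 to 188 elsewhere. In these 2 libraries TNFSF10 itself was at its lowest, so the ligand was low where its receptors were high.

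**Figure D3:**
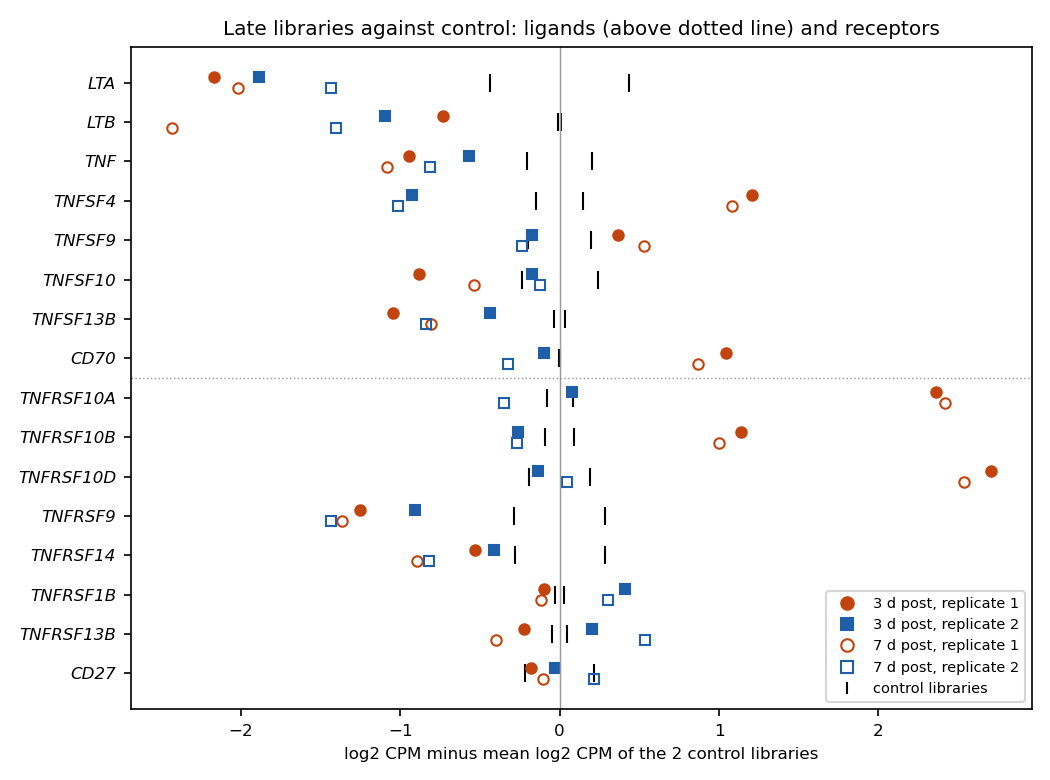
Each late library as log2 CPM minus the mean log2 CPM of the 2 control libraries (x axis) for the 8 ligand genes, above the dotted line, and 8 receptor genes, below it. Filled symbols are 3 days and open symbols 7 days, circles are replicate 1 and squares replicate 2, and vertical ticks are the control libraries. TNFSF4, CD70, TNFRSF10A, TNFRSF10B and TNFRSF10D (the last chosen after its values were seen) are high in both circles and near or below 0 in the squares, while LTA, LTB and TNF are below 0 in all 4.

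Genes that act downstream of the receptors were mixed. Of 19 adaptors and kinases, all tested, 13 were lower and 6 higher than control at 3 days (median log2 difference -0.26), and 11 lower and 8 higher at 7 days (-0.25), with 0 called. Without both late replicate 1 libraries these medians were -0.23 and -0.16. TRAF1, an adaptor that is itself an NF-kB target, was at 195 and 167 CPM in control cells, 89.1 and 103 CPM at 3 days, and 88.0 and 101 CPM at 7 days. BIRC3, a ubiquitin ligase of the TRAF complexes, was at 526 and 823 CPM in control cells, 270 and 379 CPM at 3 days, and 327 and 370 CPM at 7 days. For both genes the late libraries lay below all early ones, and edgeR's adjusted p was 0.843 at 3 days and 0.851 at 7 days. TNFAIP3, an inhibitor of NF-kB signalling, differed from control by -0.57 ± 0.22 and -0.54 ± 0.22 (log2) at 3 and 7 days. TRAF3, which restrains the alternative pathway, differed by -0.36 ± 0.21 and -0.37 ± 0.21. TRAF2 (0.26 ± 0.26 and 0.21 ± 0.26) and the NF-kB inducing kinase MAP3K14 (-0.21 ± 0.33 and -0.25 ± 0.34) were within about 1 standard error of control.

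Of the 5 NF-kB subunits, 4 were lower and 1 higher than control at 3 and at 7 days, with median log2 differences of -0.33 and -0.76 and 0 called. Without both late replicate 1 libraries the counts were as before and the medians were -0.56 and -0.55. NFKB2, the precursor of the p52 subunit, was at 147 and 151 CPM in control cells, 155 and 128 CPM at 24 h, 73.6 and 78.5 CPM at 3 days, and 74.9 and 76.0 CPM at 7 days. Its log2 difference from control was -0.97 ± 0.20 at 3 days (edgeR adjusted p = 0.843) and -0.98 ± 0.20 at 7 days (0.851). REL differed from control by -0.82 ± 0.26 and -0.76 ± 0.26 (log2) and RELB by -0.33 ± 0.29 and -0.89 ± 0.30. NFKB1 (-0.23 ± 0.19 and -0.26 ± 0.19) and RELA (0.10 ± 0.20 and 0.12 ± 0.20) lay closer to control. None of these differences passed the test.

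**Figure D4:**
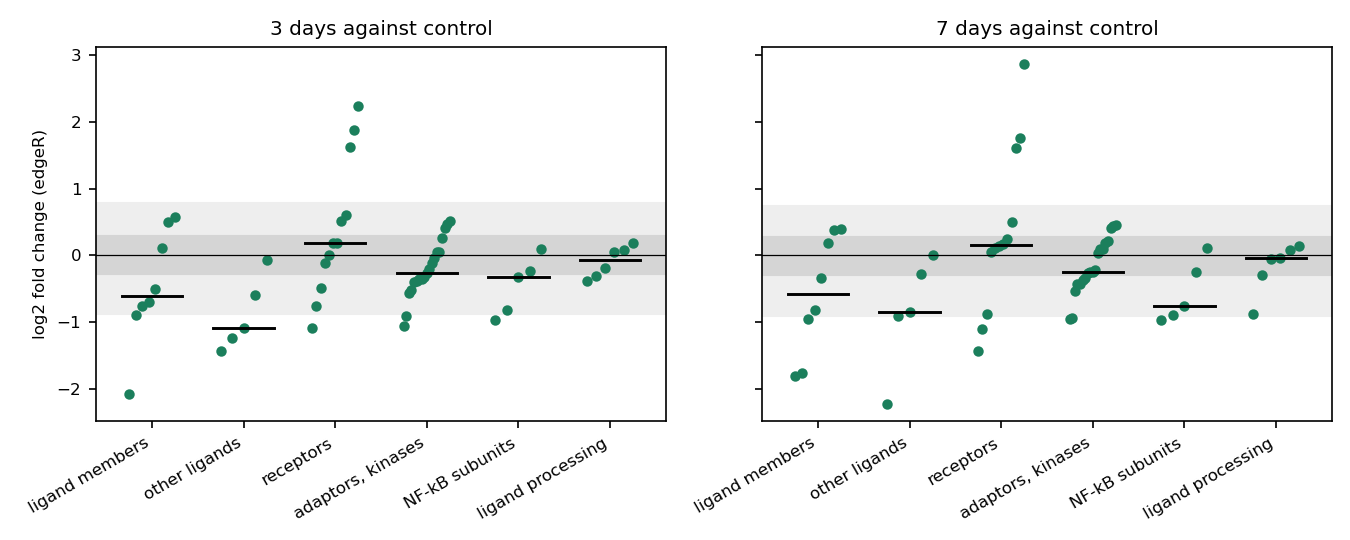
Fitted log2 fold change against control (y axis) at 3 days (left) and 7 days (right) for the tested genes of 6 lists, with 1 point per gene and a bar at the list median. The dark and light grey bands hold the interquartile range and the middle 90% of all 12536 tested genes. Ligand points reach from -2.09 to 0.58 at 3 days, and the highest receptor points are the TRAIL receptor genes.

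Among 10 further ligands of the superfamily, 5 passed the count filter and all 5 had a lower estimate than control at 3 and at 7 days, with medians of -1.10 and -0.85 (log2) and 0 called. Without both late replicate 1 libraries all 5 were again lower, with medians of -0.90 and -0.78. With all libraries TNFSF12 was close to control, at -0.08 at 3 days and -0.003 at 7 days (log2). Against 24 h, 4 were lower and 1 higher at 3 days, and 3 were lower and 2 higher at 7 days. All 5 were at low levels. TNFSF14 (LIGHT), which shares receptors with LTA and is a neighbour of CD70, was at 3.51 and 6.14 CPM in control cells, 2.88 and 3.48 CPM at 3 days, and 4.31 and 3.62 CPM at 7 days. Of 7 genes that process membrane ligands, 6 were tested, with medians of -0.07 and -0.05 and 0 called. ADAM17, the protease that sheds TNF, was at 95.3 to 129 CPM, ADAM10 at 173 to 228 CPM and FURIN, which cleaves the BAFF precursor, at 3.84 to 10.1 CPM in the 8 libraries.

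Of 11 genes next to the members in the RefSeq gene order, 6 passed the filter, and 5 of these had a lower estimate than control at 3 and at 7 days (medians -0.52 and -0.31, 0 called). NFKBIL1, the neighbour of LTA, was at 0.921 to 3.08 CPM, with a log2 difference from control of 1.10 ± 0.63 at 3 days and 0.46 ± 0.65 at 7 days. Its estimate was thus opposite in sign to that of LTA, at a low count. In replicate 2 at 7 days NFKBIL1 was at 1.005 CPM, between the controls at 1.23 and 0.921 CPM. Without both late replicate 1 libraries, with 7 neighbours tested, 6 were lower and 1 higher at 3 days. At 7 days 7 were then lower and 0 higher, and the medians were -0.455 and -0.448. LST1, the neighbour of LTB, had 2 to 13 reads a library and DDX39B 2 reads in all, and neither was tested. Whether overlap with other annotated genes lowered the DDX39B count was not tested.

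The genes with the pattern most like LTA were sought by Pearson's r of log2 CPM over the 8 libraries, among 10478 genes with a mean of at least 2 CPM. They were ANKRD18A (r = 0.993), BBS1 (0.992), LMO2 (0.988), NCKAP1 (0.985) and PCDHGB3 (0.984). LMO2, a transcriptional regulator of blood cells, was at 17.5 and 27.5 CPM in control cells, 23.8 and 16.5 CPM at 24 h, 7.61 and 10.5 CPM at 3 days, and 9.61 and 10.6 CPM at 7 days. It repeated the crossed order of LTA in the early libraries, which is part of the likeness it was chosen for. For TNF the most alike were KSR1 (r = 0.995), CERS4, GPC4, ZNF43 and IL1R1 (0.99), and for LTB they were NHSL1 (0.967), USP35, NPR1, PLXNA1 and PNPLA7 (0.95). Spearman's rho with LTA was 1 for 4 of its 5 genes and 0.976 for NCKAP1, whose rank by rho was only 13. With 8 libraries that fall into early and late ones, these values are a description with no test.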

How the data were processed

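RNA was measured in 8 libraries, and the authors deposited whole-number read counts per gene symbol, a table per library with no pooling of replicates, per the file headers and values. The submitters' processing notes name GRCh37 and hg19 as builds and DESeq2 1.8.1, R 3.2.3, Bowtie2, SAMtools and Trim Galore as tools. Which program counted the reads, with which annotation and strand setting, is not given in the sources used here. The 5 summary entries that name no gene took 42.6% to 57.5% of reads and were left out.

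Counts were fitted with edgeR 4.0.16 (R 4.3.3): TMM scaling, filterByExpr (minimum count 10), all 8 libraries, a coefficient per group, no block, the quasi-likelihood test and Benjamini-Hochberg adjustment over 12536 genes in each of 6 comparisons. The fit was also run on simulated counts. These lacked the split between late replicates, so they do not show how the test performs on the present libraries. The members and gene lists were chosen with earlier results of these data known. All 8 members are named in every library, with receptors, adaptors, subunits, processing enzymes and neighbours listed by symbol whatever their values, and the 5 genes most like LTA, LTB and TNF. Promoters came from RefSeq (GRCh38.p14) and lengths from GENCODE. Groups not overlapping means that both libraries of 1 group lay below or above both of the other. An edgeR p-value here weighs a group difference against a spread estimated over all 8 libraries, with 2 a group. That spread includes the split between late replicates, also in comparisons without those libraries. For TNFSF4 at 24 h against control the standard error was 0.755, and 0.227 with only the groups compared. Each ± on a log2 difference is a standard error worked back from that difference and the F statistic of the test.

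Same-numbered libraries did not pair across all groups: correlations of replicate differences over genes ran from -0.599 (control with 24 h) to 0.811 (3 with 7 days). Other settings tried were DESeq2 1.42.0, limma-voom (limma 3.58.1), upper-quartile or RLE scaling, no and a stricter count filter (50 counts in 2 libraries), only the groups compared, a replicate block, and libraries left out. The depth of 9478459 to 11110830 gene counts per library left LTB with 8 to 56 reads.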

Additional observations from a re-analysis of the deposited data

Results flagged for a closer look

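TNFSF13B lay on opposite sides of control at 24 h and at the later times. Both 24 h libraries (31.4 and 26.1 CPM) were above both control libraries (23.2 and 24.3 CPM), whereas both 3 day libraries (11.5 and 17.5 CPM) and both 7 day libraries (13.6 and 13.3 CPM) were below them. At 24 h 11.4% of all tested genes were higher without overlap, and the log2 difference of TNFSF13B from control was 0.28 ± 0.27 (edgeR adjusted p = 1). The difference itself was tested with edgeR: it was -0.98 on the log2 scale for 3 days against 24 h (adjusted p = 0.726) and -1.10 for 7 days against 24 h (adjusted p = 0.735), and neither passed. Leaving out 1 library at a time gave -1.32 to -0.71 and -1.22 to -0.96. Groups of 2 libraries are too small for a check of single outlying libraries.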

How the results depend on the processing

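Across 816 values of the 8 ligand genes under other settings, 54 turned sign. Of these, 2 were LTA at 24 h, which went from -0.22 to 0.28 without control replicate 2 and to 0.14 without 24 h replicate 2. None of the other 7 members changed its side of the threshold, and 6 values of LTA moved by more than a standard error, all with 1 library left out. TNFSF13B kept its sign in the 5 comparisons other than 7 against 3 days, and LTB and TNF kept theirs at 3 and 7 days against control and against 24 h. The 8 to 56 LTB reads a library limit the precision of LTB.

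Genes called numbered 9 (3 days) and 15 (7 days) against control and 19 and 21 against 24 h with DESeq2, and 11, 16, 21 and 25 with no count filter. Leaving out 1 library at a time, where the lone library is assumed to vary like the other groups, gave 0 in each comparison. With the replicate block 0 genes were called in each comparison, and TNFSF4 at 24 h went to 0.061 (log2). A block with crossed 24 h numbers, chosen after seeing the data, called 6, 5, 19 and 10.

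With both late replicate 1 libraries left out, log2 differences at 3 and 7 days from control and at 3 and 7 days from 24 h were -0.93, -1.02, -0.87 and -0.96 for TNFSF4 and -0.091, -0.32, -0.060 and -0.29 for CD70. For TNFSF9 they were -0.18 and -0.24 from control, -0.40 at 7 days from 24 h and -0.068 between 7 and 3 days. Upper-quartile scaling gave -0.0053 for TNF at 24 h and -0.023 for TNFSF9 at 7 days from 24 h, and the stricter filter -0.00037 for the latter. The cause of these turns was not tested.

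Leaving out 1 library at a time gave these ranges at 24 h against control: LTA -0.71 to 0.28, LTB -0.55 to 0.23, TNF -0.22 to 0.22, TNFSF4 -0.32 to 0.15, TNFSF9 -0.15 to 0.41, TNFSF10 -0.28 to 0.27 and CD70 -0.34 to 0.22. At 3 days against control TNFSF4 ran from -0.94 to 1.20, TNFSF9 from -0.18 to 0.35 and CD70 from -0.10 to 1.04. At 7 days they ran from -1.02 to 1.09, -0.25 to 0.53 and -0.32 to 0.88. At 3 days against 24 h they ran from -0.87 to 1.26, -0.34 to 0.26 and -0.062 to 1.08, and at 7 days against 24 h from -0.96 to 1.15, -0.40 to 0.37 and -0.29 to 0.91. Between 7 and 3 days the ranges were LTB -1.51 to -0.49, TNF -0.38 to 0.0051, TNFSF4 -1.51 to 1.31, TNFSF9 -0.35 to 0.42, TNFSF10 -0.14 to 0.57, TNFSF13B -0.38 to 0.22 and CD70 -0.90 to 0.49. For LTA the range was -2.46 (without control replicate 1) to -1.59 (without control replicate 2) at 3 days and -2.13 to -1.26 at 7 days.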
